A study of Rattus norvegicus with 24 samples.

Results

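The 9 genes Cd79a, Cd79b, Ms4a1, Pou2af1, Cxcl13, Cr2, Cd22, Blnk and Cxcr5 mark B cells and the follicles in which B cells gather. They were found by gene symbol in the annotation of the rat array, and each was read from its brightest probe set with a single symbol over the 24 arrays. Cd79a had no such probe set and was left out, so 8 of the 9 were measured, among 14217 genes in all. The 9 symbols were chosen with earlier results of these data known.

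The data are from right caudal lung lobes of male Sprague-Dawley rats, an outbred strain, 17 weeks old and with 1 array per rat. Each of the 6 groups held 4 rats. Every rat had both a nose-only exposure, to air or to cigarette smoke, and a whole-body exposure, to air, Iraqi sand or silica. The groups are called air alone, air and Iraqi sand, air and silica, smoke alone, smoke and Iraqi sand, and smoke and silica. The smoke held 0.48 mg of wet particulate matter in all per litre and was given 3 hours a day and 5 days a week, for 5 weeks per the treatment protocols and 6 weeks per the study description. Particles were given at 1 mg per cubic metre, 18 hours a day and 7 days a week, for 2 weeks. The question asked of these genes was whether the B cell signal of the lung differed with smoke, with either particle, or with both.

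B cells recognise antigen through a receptor made of an immunoglobulin and the signalling pair Cd79a and Cd79b. Co-receptors such as Cd22 and Cr2 set how strongly the receptor signals, and Blnk passes the signal on inside the cell. Outside the lymph nodes, the lung can hold small clusters of lymphocytes along the airways, called bronchus-associated lymphoid tissue, and in rats these are a regular feature. The chemokine Cxcl13 attracts B cells that carry its receptor Cxcr5 into such follicles.

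Pou2af1, also called OBF-1, is a coactivator that B cells use with the POU factors Oct-1 and Oct-2, which bind the octamer ATGCAAAT. It was the member that passed the test below, so promoters holding this motif are shown. RefSeq promoter windows of 300 bases on assembly GRCr8 were given for 5 of the 9 genes, namely Cd79a, Cd22, Blnk, Cr2 and Cxcl13. The octamer was searched on both strands, as ATGCAAAT or ATTTGCAT, and 595 of 33469 rat promoter windows held it, or 1.78%. Of the 5, 1 held it, the promoter of Blnk, and these letters were not in the other 4 windows. Among the other gene lists described below, the octamer was in 1 of 19 windows of other B lineage genes, that of Vpreb3, which is made in developing B cells, and in 1 of 31 of lymphoid tissue organisation, that of Ccr6, a chemokine receptor of B cells and some T cells. It was likewise in 1 of 10 windows of airway secretory markers and 1 of 12 of alveolar macrophage markers. Each line gives 80 bases around the octamer, on the strand of the gene, with the octamer in capitals as it reads there, which is the reverse complement of ATGCAAAT. The Blnk stretch lies at chr1:249770679-249770758, that of Ccr6 at chr1:55046176-55046255 and that of Vpreb3 at chr20:12718239-12718318, all on the minus strand.
Blnk: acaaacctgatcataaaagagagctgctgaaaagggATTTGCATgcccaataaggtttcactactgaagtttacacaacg
Ccr6: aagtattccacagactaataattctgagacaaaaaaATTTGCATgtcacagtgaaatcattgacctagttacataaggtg
Vpreb3: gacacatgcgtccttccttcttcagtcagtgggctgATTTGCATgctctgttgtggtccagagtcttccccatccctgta
The octamer begins 189 bases before the start of Blnk, 91 before that of Ccr6 and 56 before that of Vpreb3. A match describes these letters only.

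The 24 arrays were even in overall level, with log2 medians of 7.26 to 7.32, and an RNA integrity number was known for 19 of them, from 8.1 to 9.8. Sftpc, the surfactant protein of alveolar type 2 cells, lay between 14.79 and 14.95 in every rat, which fits lung. Rat 302, in the group with air and Iraqi sand, stood apart: its correlation to the other arrays averaged 0.948, while those of the rest averaged 0.983 to 0.990. Myl7, an atrial heart muscle gene, was 11.51 in rat 302 and 12.04 in rat 104 of the air-alone group, and lay between 4.56 and 9.33 in the other rats. The main results are therefore given with and without rat 302, and several also without rats 302, 104 and 604. Rats 302 and 104 breathed air and were above all their mates in 7 of 8 members. Rat 604 breathed smoke and was below its mates in 5 members and above them in 2. Leaving out these rats together thus removes high air rats and a mostly low smoke rat. In whole lung tissue, a change in cell numbers and a change in transcript per cell cannot be told apart. The arrays also do not show which cells held a transcript, for B cell genes as for others. As each array is a separate rat, the tests set a difference against the spread from rat to rat, estimated over all 6 groups together.

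Across the 12 rats that breathed smoke, Pou2af1 was lower than across the 12 that breathed air. Cd79b and Ms4a1 lay lower on average by nearly as much but did not pass the test, and the other 5 members had smaller differences. With smoke averaged over the 3 particle conditions, 1 of 8 members was called at an adjusted p under 0.05 (limma, Benjamini-Hochberg over all genes), against 6.39% of all genes called and 3.70% called lower. All 8 differences were below 0, as were 58.0% of all genes. Their median was -0.19, beside -0.02 over all genes. Without rat 302, 1 of 8 was again called, against 10.3% of all genes. Then 7 members were below 0, with no matching share of all genes worked out, and their median was -0.13. Without rats 302, 104 and 604 the median was -0.05.

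The levels of Pou2af1 were 7.66, 7.88, 8.47 and 7.43 with air alone, 7.83, 8.92, 8.0 and 7.71 with air and Iraqi sand, and 7.68, 7.54, 7.82 and 7.60 with air and silica. They were 6.58, 7.24, 7.49 and 7.20 with smoke alone, 7.42, 6.82, 7.43 and 7.27 with smoke and Iraqi sand, and 7.60, 7.66, 6.83 and 7.56 with smoke and silica. The lower end of the air rats met the upper end of the smoke rats between 7.43 and 7.66, and 3 smoke rats, 1 in each particle condition, lay under 7. Pou2af1 fell by 0.62 ± 0.15 on the log2 scale (SE, 12 against 12 rats), to 0.651 of the air level, with an adjusted p of 0.0155. Without rat 302 it fell by 0.53 ± 0.13 (adjusted p 0.0130), and without rats 302, 104 and 604 by 0.40 ± 0.10 (adjusted p 0.0204). It stayed called with each of the 24 rats left out in turn, at adjusted p-values of 0.0104 to 0.0294 in limma. On the 19 arrays with an RNA integrity number the difference was -0.60 and the adjusted p 0.0798, and with that number as a covariate, on the same arrays, -0.60 and 0.105.

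**Figure D1:**
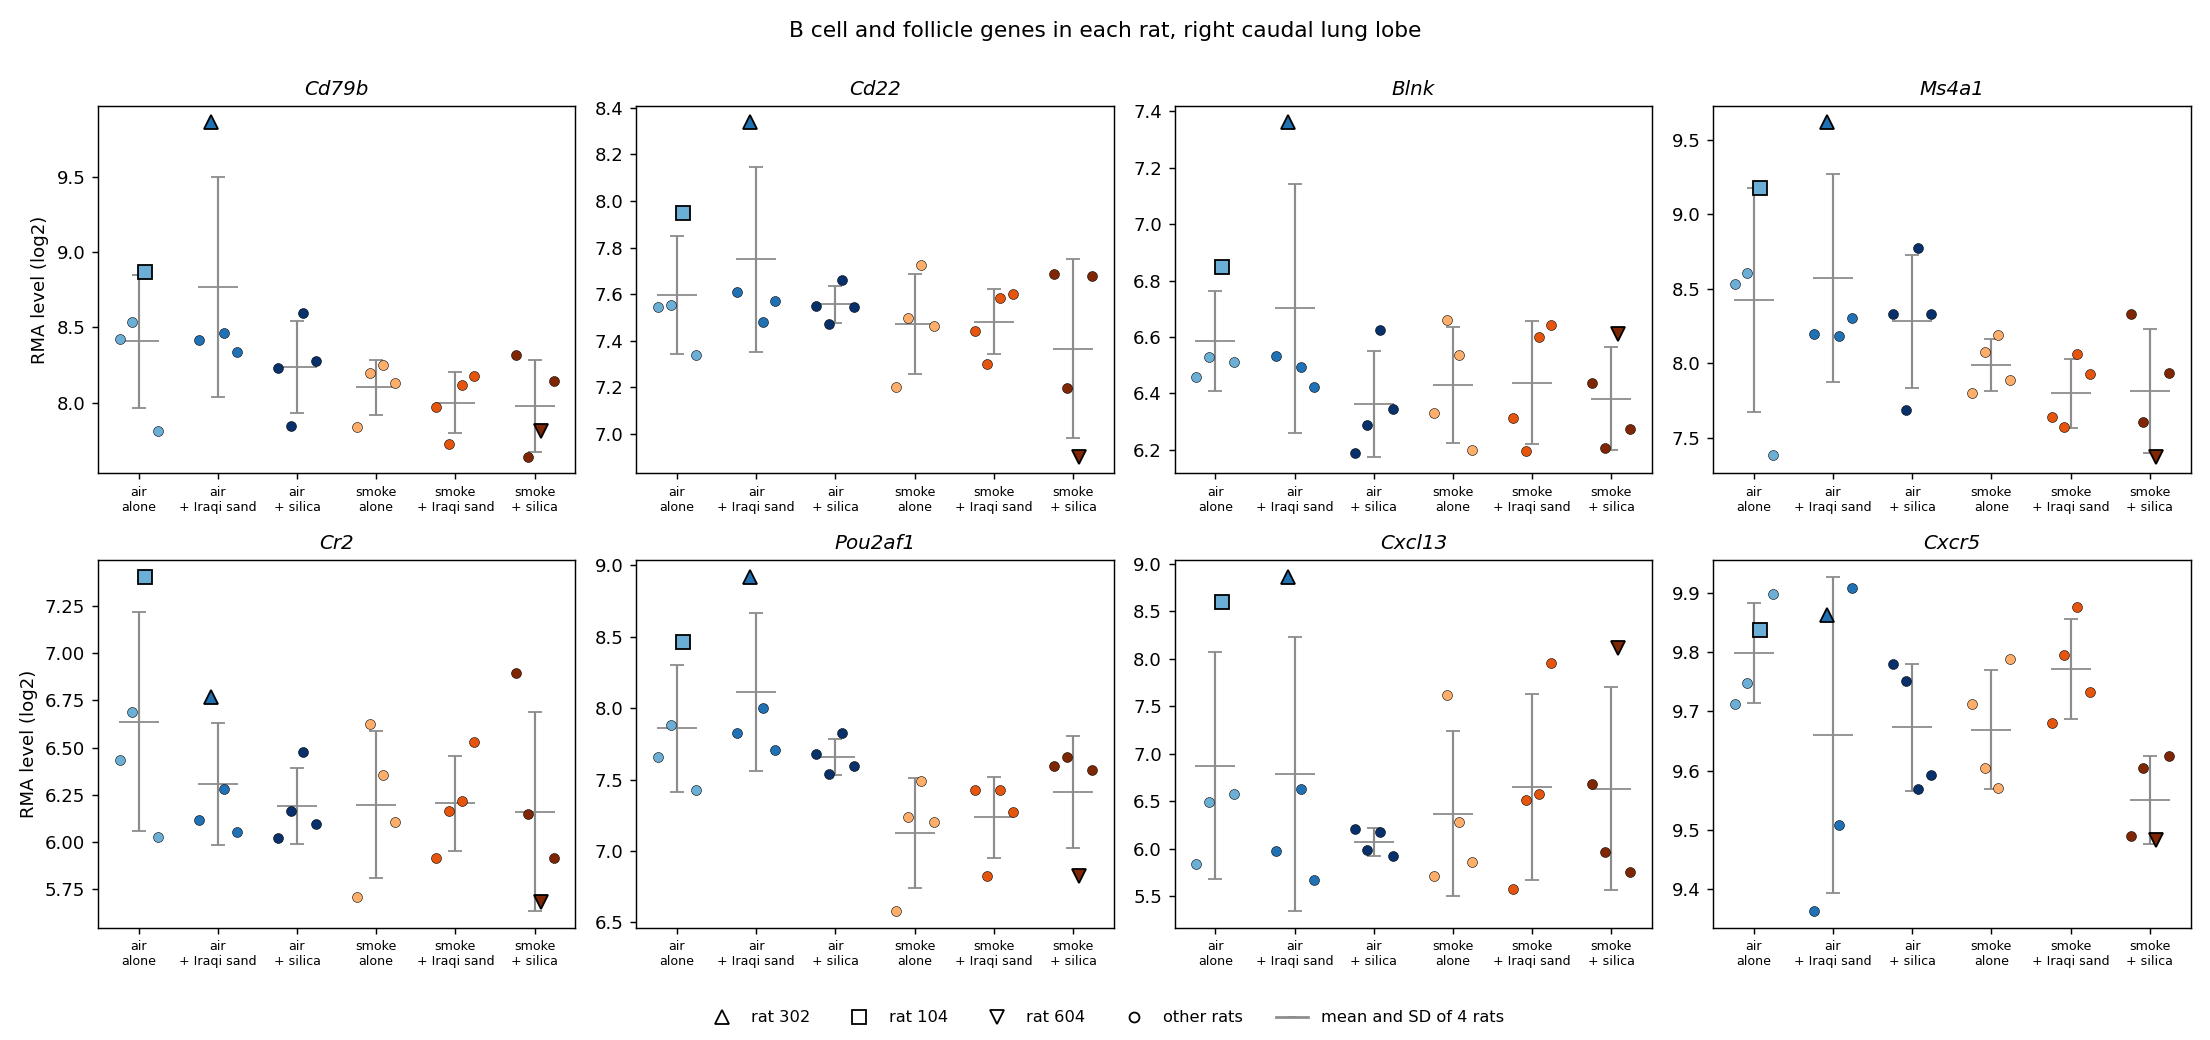
RMA levels (log2, y axis) of the 8 measured members in each of the 24 rats, by exposure group (x axis), with a bar for the mean and SD of 4 rats. Rats 302 and 104 sit at or near the top of their groups in 7 of the 8 panels and rat 604 near the bottom in 5, and each panel has its own scale, so levels are compared within a panel.

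Within the single particle conditions, the Pou2af1 difference was -0.73 ± 0.26 without particles (adjusted p 0.249), -0.88 ± 0.26 under Iraqi sand (adjusted p 0.0814) and -0.25 ± 0.26 under silica (adjusted p 0.886). All 4 rats with smoke and Iraqi sand lay below all 4 with air and Iraqi sand, but the difference was -0.61 ± 0.23 without rat 302 (adjusted p 0.253). It was called, at an adjusted p of 0.0389, when rat 305 was left out. The interactions, which test whether the smoke difference depends on the particle, were -0.14 ± 0.36 for sand (adjusted p 0.894) and 0.49 ± 0.36 for silica (adjusted p 1). Without rat 302 the one for sand was 0.12 ± 0.32 (adjusted p 0.961). The silica condition had the smallest smoke difference of the 3. With single rats left out in turn, the silica difference ran from -0.33 without rat 603 to -0.05 without rat 604. It thus rested largely on rat 604, of the group with smoke and silica. The interactions compare each particle with no particles, and whether the smoke difference under silica differed from that under sand was not tested.

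Among the receptor genes, Cd79b forms the signalling pair with Cd79a. Its levels were 8.42, 8.54, 8.87 and 7.81 with air alone, 8.41, 9.86, 8.46 and 8.33 with air and Iraqi sand, and 8.23, 7.85, 8.60 and 8.28 with air and silica. They were 7.84, 8.19, 8.25 and 8.13 with smoke alone, 7.97, 7.72, 8.11 and 8.18 with smoke and Iraqi sand, and 8.32, 7.64, 7.81 and 8.14 with smoke and silica. Rat 302 was the highest of all by about 1 log2 unit, and the smoke rats overlapped the lower air rats in every condition but Iraqi sand. Averaged over particles the difference was -0.45 ± 0.16, with a 95% interval of -0.77 to -0.12 and an adjusted p of 0.0839. It was -0.32 ± 0.11 without rat 302 (adjusted p 0.0684) and -0.25 ± 0.11 without rats 302, 104 and 604 (adjusted p 0.158). It passed, at an adjusted p of 0.0496, when rat 105 was left out, the lowest of the air-alone rats.

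Cd22 is an inhibitory co-receptor that dampens B cell receptor signals. Its levels were 7.54, 7.55, 7.95 and 7.34 with air alone, 7.61, 8.34, 7.48 and 7.57 with air and Iraqi sand, and 7.55, 7.47, 7.66 and 7.55 with air and silica. They were 7.20, 7.50, 7.73 and 7.46 with smoke alone, 7.44, 7.30, 7.59 and 7.60 with smoke and Iraqi sand, and 7.68, 7.20, 6.90 and 7.68 with smoke and silica. The groups overlapped in each condition, and the averaged smoke difference was -0.19 ± 0.10 (adjusted p 0.261). It was -0.13 ± 0.09 without rat 302 (adjusted p 0.383) and -0.04 without rats 302, 104 and 604 (adjusted p 0.801).

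Blnk is the adaptor that links the receptor to its downstream enzymes. Its group means lay between 6.36 ± 0.19 (SD, n = 4) with air and silica and 6.70 ± 0.44 with air and Iraqi sand, and its single rats between 6.19 and 7.36. The averaged smoke difference was -0.13 ± 0.10 (adjusted p 0.419), and -0.06 ± 0.07 without rat 302 (adjusted p 0.650). The highest value was again that of rat 302, and no other rat reached 7.

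Ms4a1, which encodes CD20, a membrane protein of mature B cells, followed Cd79b closely. Its levels were 8.53, 8.61, 9.18 and 7.39 with air alone, 8.20, 9.61, 8.18 and 8.31 with air and Iraqi sand, and 8.33, 7.69, 8.77 and 8.33 with air and silica. They were 7.80, 8.08, 8.19 and 7.89 with smoke alone, 7.64, 7.57, 8.06 and 7.93 with smoke and Iraqi sand, and 8.33, 7.61, 7.38 and 7.94 with smoke and silica. The smoke rats spanned a narrower range than the air rats, whose lowest, rat 105, was down among the lowest smoke rats. The averaged difference was -0.56 ± 0.19, with a 95% interval of -0.95 to -0.16 and an adjusted p of 0.0767. It was -0.44 ± 0.17 without rat 302 (adjusted p 0.0883), -0.31 ± 0.15 without rats 302, 104 and 604 (adjusted p 0.209), and -0.67 with an adjusted p of 0.0217 without rat 105.

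Cr2, the complement receptor CD21 of mature B cells and follicular dendritic cells, had group means of 6.64 ± 0.58 with air alone, 6.31 ± 0.32 with air and Iraqi sand, and 6.19 ± 0.20 with air and silica. With smoke the means were 6.20 ± 0.39, 6.21 ± 0.25 and 6.16 ± 0.53 in the same order (SD, n = 4 each). The air-alone mean was the highest of the 6 and held rat 104 at 7.41, the highest single value. The averaged smoke difference was -0.19 ± 0.15 (adjusted p 0.467). It was -0.14 ± 0.15 without rat 302 (adjusted p 0.619). Without rats 302, 104 and 604 it was 0.0007 (adjusted p 0.998), so no direction was left. With single rats left out in turn the difference stayed below 0, from -0.27 without rat 602 to -0.10 without rat 104. Cr2 has 4 other probe sets on the array, and their differences, with p-values adjusted over 31042 probe sets, were -0.10, 0.02, -0.21 and -0.04. None was called in limma, and the lowest unadjusted p was 0.0892.

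**Figure D2:**
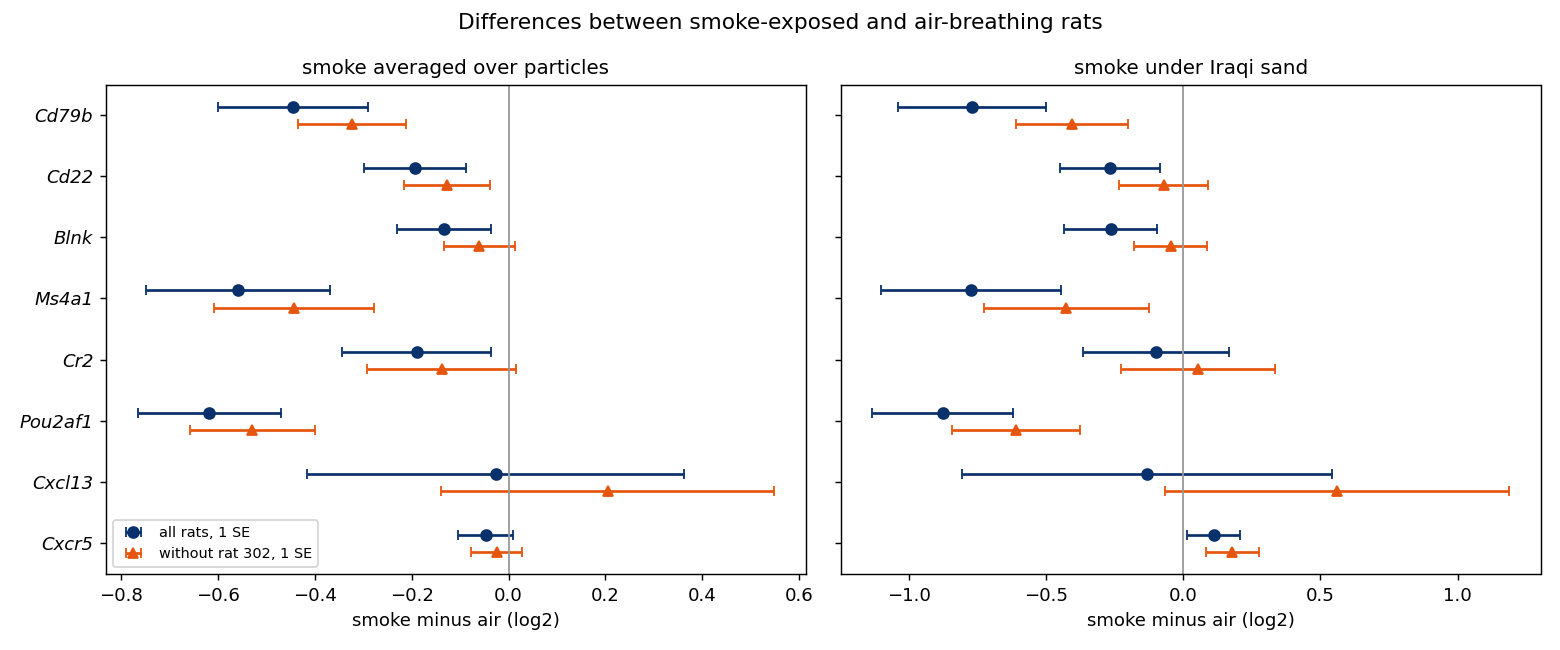
Difference between smoke and air rats (log2, x axis) for each of the 8 members, averaged over the particle conditions on the left and under Iraqi sand on the right, with bars of 1 SE. Circles are all rats and triangles are without rat 302; in the left panel the Pou2af1 point moves from -0.62 to -0.53 and the Cxcl13 point from -0.03 to 0.20.

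The ligand Cxcl13 varied more between rats of a group than the other members did. Its levels were 5.83, 6.49, 8.60 and 6.57 with air alone, 5.98, 8.86, 6.63 and 5.67 with air and Iraqi sand, and 6.21, 5.98, 6.18 and 5.92 with air and silica. They were 5.71, 7.62, 6.28 and 5.86 with smoke alone, 5.57, 6.51, 6.58 and 7.95 with smoke and Iraqi sand, and 6.69, 5.97, 8.12 and 5.76 with smoke and silica. In 5 of the 6 groups 1 rat stood above its mates, namely rats 104, 302, 203, 406 and 604, and the group with air and silica had no such rat. The residual SD of Cxcl13 was 1.03, at the 99.7th percentile of all genes, while that of Pou2af1 was 0.387, at the 93.3rd. The averaged smoke difference was -0.03 ± 0.39 with a 95% interval of -0.84 to 0.78 (adjusted p 0.977), and 0.20 ± 0.34 without rat 302 (adjusted p 0.755). Without rats 302, 104 and 604 it was 0.23 (adjusted p 0.654).

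Cxcr5, the receptor of Cxcl13, was by its brighter probe set the steadiest of the 8, with a residual SD of 0.137 and levels of 9.36 to 9.91. Its averaged smoke difference was -0.05 ± 0.06 (adjusted p 0.639), and -0.02 ± 0.05 without rat 302 (adjusted p 0.812). With smoke and silica it was 9.49, 9.61, 9.48 and 9.62, below the 9.71, 9.75, 9.84 and 9.90 of air alone, with no overlap. That difference was -0.25 ± 0.10 with an adjusted p of 0.166. Cxcr5 has a second probe set, whose averaged smoke difference was -0.11 ± 0.09 (adjusted p 0.505 over 31042 probe sets). Between rats, the second probe set had r = 0.71 with Cd79b, and 0.16 without rat 302, while the brighter one had r = 0.10, and -0.31 without rat 302.

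In the other 13 comparisons none of the 104 member tests was called (limma, adjusted p under 0.05), and 6 had an unadjusted p under 0.05. Of these, 3 were under Iraqi sand (Cd79b, Ms4a1 and Pou2af1), where 20.5% of all genes had such a p. The others were Pou2af1 without particles (9.95% of genes), Pou2af1 with smoke and Iraqi sand against air alone (10.9%) and Cxcr5 with smoke and silica against air alone (18.5%). Under Iraqi sand, smoke against air called 1.29% of all genes and 0 of 8 members. There the 4 smoke rats lay below the 4 air rats without overlap in 3 members, Cd79b, Ms4a1 and Pou2af1, as in 6.95% of all genes. The differences of Cd79b and Ms4a1 were -0.77 ± 0.27 (adjusted p 0.124) and -0.77 ± 0.33 (adjusted p 0.191), and without rat 302 they were -0.41 ± 0.20 and -0.43 ± 0.30. Without particles, smoke called 0.893% of genes and 0 of 8 members, and all 8 differences were below 0 with a median of -0.37, beside -0.01 over all genes. Without rats 302, 104 and 604 that median was -0.14. Under silica smoke called 0.00703% of genes and 0 of 8 members.

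Neither particle moved a member past the test. Averaged over smoke and air, Iraqi sand called 0% of genes and 0 of 8 members, and silica called 0.345% and 0 of 8. Without rat 302 the shares were 0.0352% and 3.81%, again with 0 of 8 members in each. Member differences ran from -0.16 (Cr2) to 0.18 (Pou2af1) with sand, and from -0.27 (Cxcl13) to 0.04 (Pou2af1) with silica. Within air, sand called 0.0281% of genes and silica 0.141%, and within smoke each called 0.0141%, with 0 of 8 members in all 4. For Pou2af1 the difference with sand was 0.25 ± 0.26 in air and 0.11 ± 0.26 in smoke, and without rat 302 the one in air was -0.01 ± 0.23. That of Cd79b with sand in air was 0.36 ± 0.27, and -0.01 ± 0.20 without rat 302. With sand averaged over smoke and air, 3 of 8 members lay below 0 with all rats, beside 44.5% of all genes. This became 7 of 8 without rat 302, where the share over all genes was not worked out. The member median was 0.07 with all rats, -0.05 without rat 302 and 0.008 without rats 302, 104 and 604. The direction with sand thus changed with the rats left out. Against air alone, smoke and Iraqi sand called 0.978% of genes and smoke and silica 3.77%, with 0 of 8 members in each. Without rat 302, which is in neither comparison but in the shared estimate of the spread, they called 3.97% and 12.5% of genes and again 0 of 8 members. All 8 differences were below 0 in both, a count given without its share over all genes. These comparisons share the air-alone rats with each other and with smoke without particles. Pou2af1 did not overlap between smoke and Iraqi sand and air alone, as in 7.17% of genes, with a difference of -0.62 ± 0.26 (adjusted p 0.332). The Cxcr5 groups that did not overlap in smoke and silica are to be read beside 10.0% of genes that were lower there without overlap. The interaction of smoke and Iraqi sand called 0.00703% of genes and that of smoke and silica 0%, with 0 of 8 members in each. The widest of these was Cxcl13 with silica, at 1.07 ± 0.95 and a 95% interval of -0.92 to 3.05.

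With all 24 rats, the members other than Cxcr5 moved together from rat to rat. Deviations from group means were correlated over the 24 rats as a description, for 28 pairs that share the same arrays. In the 21 pairs without Cxcr5, Pearson's r ran from 0.38 to 0.94 with a median of 0.74 (Spearman's median 0.70). Without rats 302 and 104 the median was 0.58 (Spearman's 0.56) and the range -0.20 to 0.92, over 22 rats. In the 7 pairs with Cxcr5, r lay between -0.06 and 0.19, and between -0.43 and -0.11 without rats 302 and 104. Over all 28 pairs the median r was 0.59, and 0.30 without rats 302 and 104. Cd79b and Ms4a1 were the closest pair, at r = 0.94 with all rats and 0.92 without rats 302 and 104.

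Without these 2 rats the members fell into sets by Pearson's r, picked after their values were seen, and less clearly by rank. Cd79b, Ms4a1, Cd22, Cr2 and Pou2af1, which B cells express, had r between 0.58 and 0.92 with each other (Spearman's rho 0.56 to 0.94). Blnk, also a B cell gene, had r of 0.12 to 0.45 with these 5. Its rho was 0.45 to 0.53 with Cd79b, Ms4a1, Cr2 and Cd22, and 0.16 with Pou2af1. Cxcl13, which stromal and other cells make, had r between -0.20 and 0.30 with these 5 and 0.71 with Blnk (Spearman's rho 0.71). It also had r = 0.82 with the proliferation gene Mki67 (rho 0.72), and 0.42 with all rats. With Bpifa1, an airway secretory gene, Cxcl13 had r = 0.61 (rho 0.70), and 0.80 with all rats. Rats 203, 406 and 604, high in Cxcl13, were the highest of their groups in Mki67, at 7.06, 7.25 and 8.90. Rat 104 was also the highest of its group in Mki67, at 6.09, though its mates reached 6.04, and rat 302 was the lowest of its group, at 5.33. Over the 19 rats left without these 5, r of Cxcl13 was 0.23 with Mki67, 0.41 with Blnk and 0.73 with Bpifa1. The 5 were picked by their high Cxcl13, which narrows its range in the rest. Whether the relations differ in how far they rest on these rats was not tested.

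**Figure D3:**
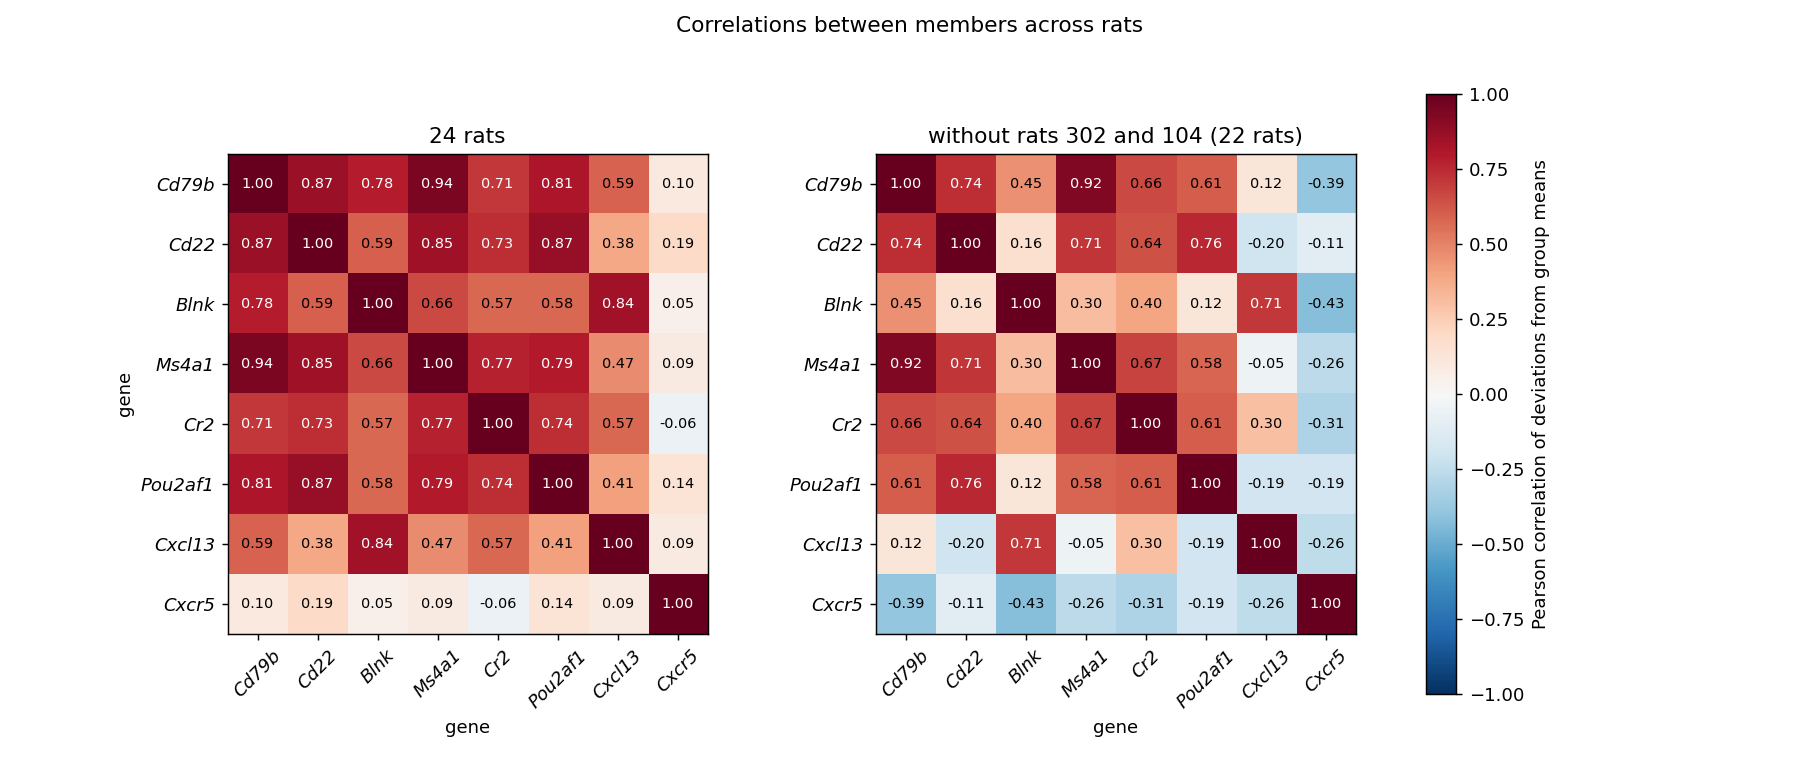
Pearson correlation of deviations from group means for each pair of the 8 members, over 24 rats on the left and 22 rats, without rats 302 and 104, on the right. On the right Cd79b, Ms4a1, Cd22, Cr2 and Pou2af1 keep r of 0.58 to 0.92 with each other, Blnk has 0.12 to 0.45 with them and Cxcl13 -0.20 to 0.30, and Cxcl13 and Blnk have 0.71.

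The genes outside the members that tracked them most closely were led by the B cell genes Fcmr and Fcer2. Likeness was the Pearson correlation over 24 rats between a gene's deviations from its group means and the mean of the standardised member deviations, ranked over 14209 genes. The first 10 were Fcmr (0.965), a receptor for IgM, Fcer2 (0.955), the IgE receptor CD23 of B cells, Ighvl1 (0.949), Ccr6 (0.916), whose promoter is shown above, Ctse (0.912), an aspartic protease, Tmem198b (0.898), Irf8 (0.887), a transcription factor of B and myeloid cells, Sash3 (0.883), a lymphocyte adaptor, Csrp3 (0.882) and Smpx (0.876), both of striated muscle. Without rats 302 and 104, Fcmr, Ighvl1 and Fcer2 were the first 3, at 0.908, 0.874 and 0.855. Csrp3 and Smpx then ranked 162nd and 212th. With smoke averaged, the differences of Fcmr, Fcer2 and Ighvl1 were -0.44 ± 0.20, -0.43 ± 0.20 and -0.57 ± 0.21, with adjusted p-values of 0.190, 0.184 and 0.0993. None of these 3 passed.

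Single rats set much of this. Rat 302 was above all 3 of its mates in 7 of 8 members, by a median of 0.98 and up to 2.77 (Cxcl13). The exception was Cxcr5 as read from its brighter probe set. By its second probe set, the smoke difference of Cxcr5 under Iraqi sand was -0.24 with all rats and 0.01 without rat 302. Beside this, it was above its mates in all 11 heart muscle markers, by a median of 2.94, in 9 of 11 airway secretory markers (median 1.38) and in 15 of 17 T cell markers (median 0.81). Rat 104 was above its mates in 7 of 8 members, by a median of 0.71 and up to 2.30, and in 10 of 11 heart muscle markers (median 2.68) and 7 of 11 airway markers (median 0.52). Rat 604 was below its mates in 5 of 8 members and above them in 2, with Cxcl13 higher by 1.98, T cell markers lower by a median of 0.61 and proliferation markers higher by 1.35. The mean level of the 11 heart markers ran from 6.18 to 9.20 with air alone, 5.84 to 9.02 with air and Iraqi sand, 5.84 to 6.95 with air and silica, 5.87 to 7.50 with smoke alone, 5.89 to 6.85 with smoke and Iraqi sand, and 5.81 to 6.74 with smoke and silica. Both rats with means above 9 breathed air. None of the 11 heart markers was called with smoke, and their median difference was -0.41, or 0.03 without the 3 rats. The part of such tissue in the member differences was not tested.

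**Figure D4:**
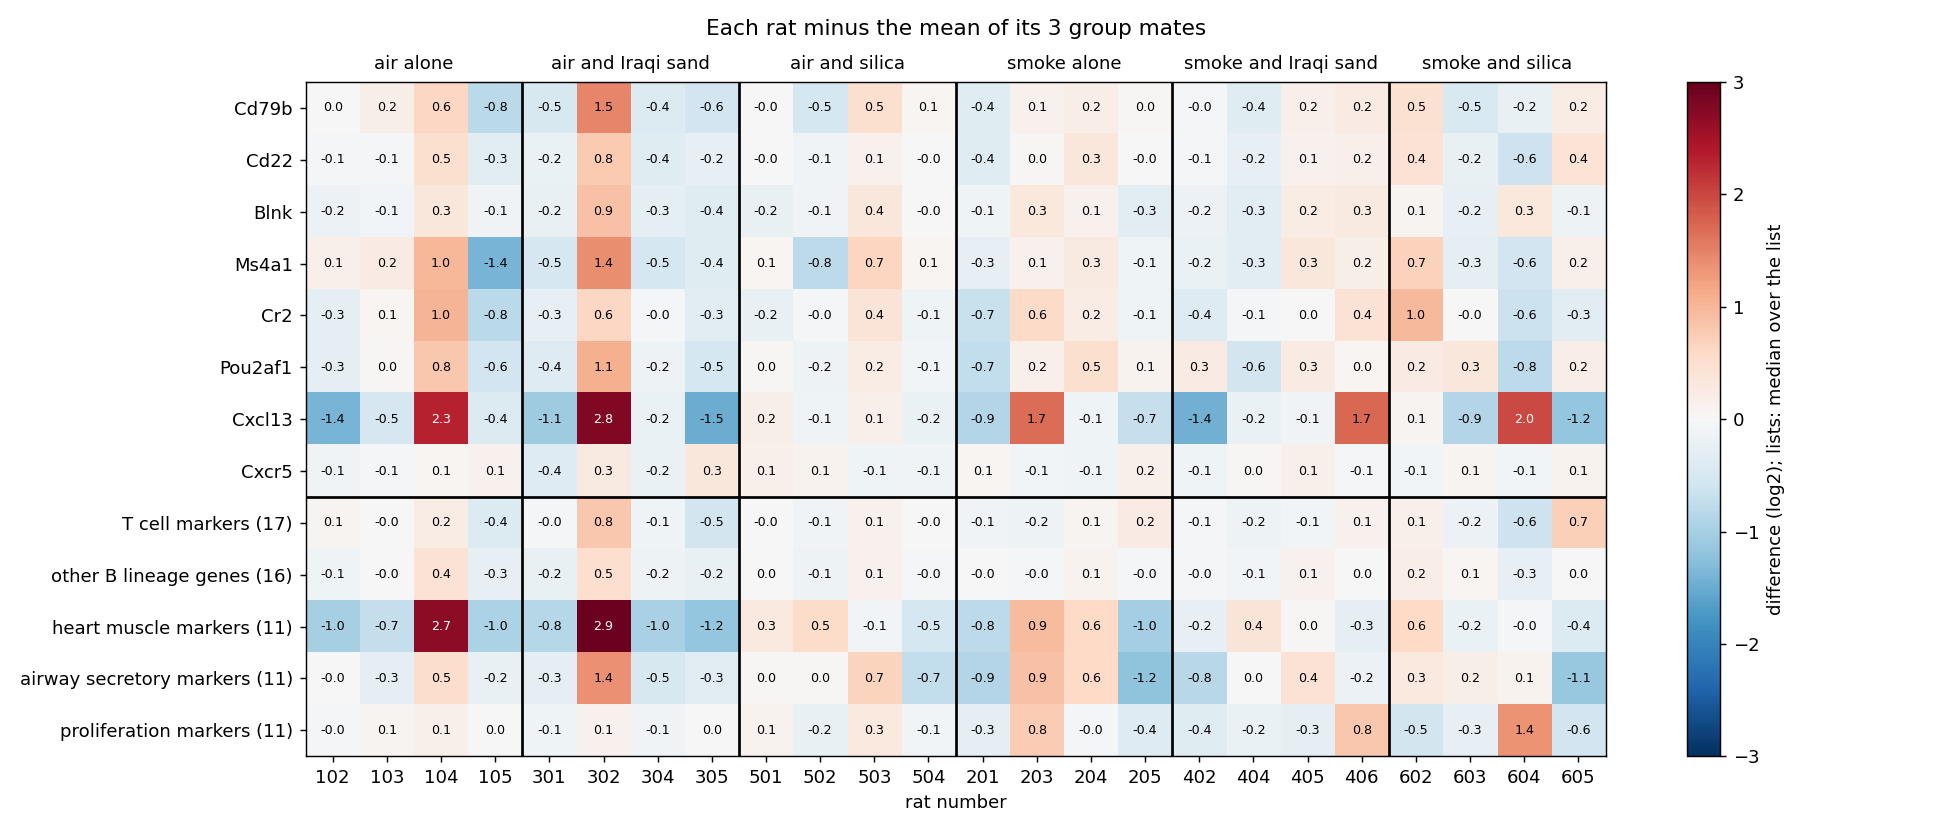
Each rat's level minus the mean of its 3 group mates (log2, colour and printed value), for the 8 members and, below the line, the median over 5 marker lists. Rats 104 and 302 are high in 7 members and in heart muscle markers (2.68 and 2.94), and rat 604 is low in 5 members and high in Cxcl13 and in proliferation markers (1.35).

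Of 16 other genes of the B lineage that were measured, 1 rose and 1 fell with smoke averaged over particles, beside 6.39% of all genes called, and their median was -0.11. Without rat 302, 1 rose and 2 fell, beside 10.3% of all genes. Cd37, a tetraspanin of mature B and other white blood cells, was 8.99 ± 0.20 with air alone, 9.05 ± 0.51 with air and Iraqi sand, and 8.72 ± 0.17 with air and silica. With smoke it was 8.64 ± 0.28, 8.40 ± 0.18 and 8.34 ± 0.42 in the same order (SD, n = 4). Cd37 fell by 0.46 ± 0.12 (adjusted p 0.0286), and Cd24, a surface protein also found on epithelium and granulocytes, rose by 0.56 ± 0.15 (adjusted p 0.0297). Each lost its call with any of 6 single rats left out, at adjusted p-values of up to 0.0578 for Cd37 and 0.0603 for Cd24.

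Among 18 genes of B cell receptor signalling, 1 rose and 1 fell with smoke averaged over particles, beside 6.39% of all genes called. Pik3ap1, the adaptor BCAP, which B cells and macrophages use, rose by 0.31 ± 0.05 (adjusted p 0.00134), opposite in sign to Pou2af1. Cd81, which associates with the co-receptor complex, fell by 0.12 ± 0.04 (adjusted p 0.0464) and lost its call with any of 19 single rats left out. Of 9 plasma cell genes 1 was called, beside the same 6.39% of all genes. This was Jchain, which joins IgA and IgM units and fell by 0.70 ± 0.21 (adjusted p 0.0471). Its lowest value was 7.38, in rat 604, and the call was likewise lost with any of 19 single rats left out, with adjusted p-values between 0.0137 and 0.0849.

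Of 31 genes of lymphoid tissue organisation, Tnfsf13 rose and Icam1 fell with smoke averaged over particles, beside 6.39% of all genes called. Tnfsf13 encodes APRIL, a survival factor for B and plasma cells that macrophages and other myeloid cells make. Its levels were 10.57, 10.52, 10.66 and 10.55 with air alone, against 11.52, 11.24, 11.29 and 11.30 with smoke alone and 11.55, 11.48, 11.50 and 11.65 with smoke and silica. Every rat of these smoke groups lay above every air-alone rat, as in 4.86% of all genes for smoke alone. With particles and no smoke the means were 10.88 ± 0.22 with Iraqi sand and 11.02 ± 0.21 with silica (SD, n = 4). Rats 304 and 501 of those groups, at 11.20 and 11.30, lay within the range of the smoke rats, which began at 11.12. Tnfsf13 rose by 0.54 ± 0.06 with smoke averaged over particles (adjusted p 2.23e-05) and by 0.97 ± 0.10 with smoke and silica against air alone (adjusted p 2.35e-05). It stayed called in both with each rat left out. Beside this, 8 of 12 alveolar macrophage markers rose with smoke, with a median of 0.55, and their mean ran from 10.24 to 10.62 in the air-alone rats and from 11.26 to 11.77 with smoke and silica. The part of macrophage number in the Tnfsf13 difference was not tested. Icam1, an adhesion molecule, fell by 0.22 ± 0.04 with smoke averaged (adjusted p 0.00105).

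Of the other genes of this list, Ccl19 and Ltb did not pass the test with smoke averaged and all rats. Ccl19, a T zone chemokine, was 9.08 in rat 302 and between 6.42 and 7.53 in the others, and its smoke difference was -0.21 ± 0.21 (adjusted p 0.565). Ltb, the lymphotoxin beta that lymphocytes use to build follicles, had a difference of 0.23 ± 0.13 (adjusted p 0.296). Ltb rose by 0.33 without rat 302 (adjusted p 0.0231), the rat in which it was 10.38, the highest level of the 24. With smoke and silica against air alone, Cd40lg, the T cell ligand that helps B cells, fell by 0.41 ± 0.09 (adjusted p 0.0150), and S1pr1, which guides lymphocytes out of tissues and is abundant in endothelium, fell by 0.73 ± 0.20 (adjusted p 0.0395). Their calls were lost with any of 2 and 6 single rats left out, rat 604 among them.

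Of 17 T cell markers, read because T cells share the same lymphoid clusters, 10 fell with smoke averaged over particles, and their median was -0.44. In the same comparison 1 of 8 members fell, and 3.70% of all genes. Without rat 302, 10 fell, and without rats 302, 104 and 604, 8 fell. Cd3d, a chain of the T cell receptor complex, was 8.26 ± 0.21 with air alone and 7.46 ± 0.27 with smoke alone (SD, n = 4), and fell by 0.64 ± 0.13 with smoke averaged (adjusted p 0.00518). Whether the B cell and T cell lists differed was not tested. The mean of the 17 markers ran from 7.56 to 8.01 with air alone and from 6.65 to 7.62 with smoke and silica. Between rats, r of Cd3d was 0.73 with Pou2af1 and 0.83 with Cd22, and 0.61 and 0.76 without rats 302 and 104 (rho 0.48 and 0.62). Of the markers of other cells, 2 of 11 airway secretory and 1 of 4 erythroid genes rose with smoke averaged, beside 2.69% of all genes. None of the 11 proliferation genes was called.

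**Figure D5:**
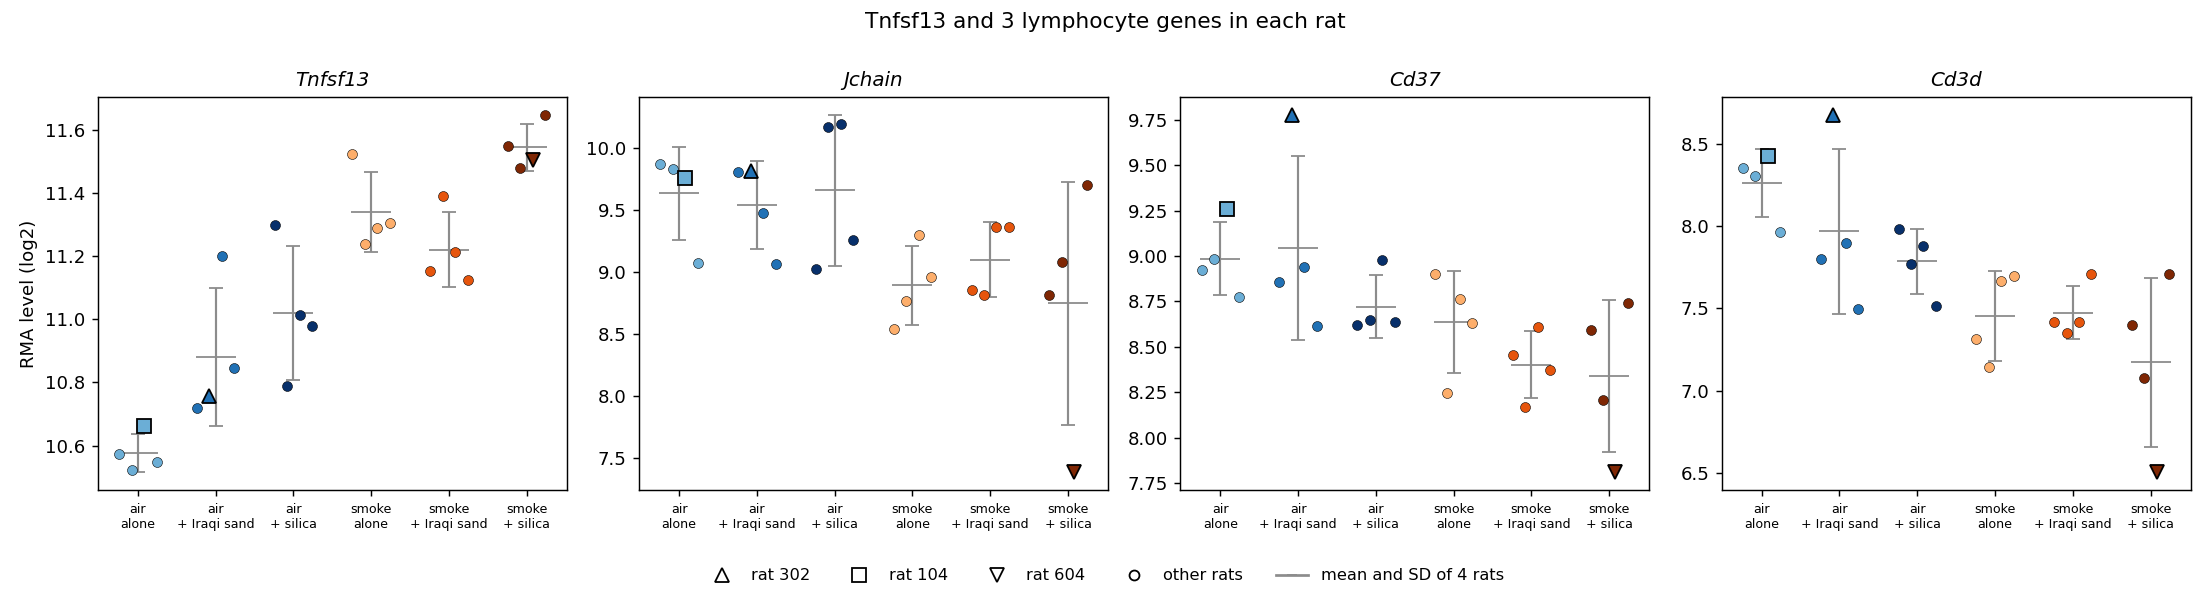
RMA levels (log2, y axis) of Tnfsf13, Jchain, Cd37 and Cd3d in each rat by exposure group (x axis), with a bar for the mean and SD of 4 rats. Tnfsf13 is higher in the smoke groups, with means of 11.22 to 11.54 against 10.58 with air alone, 10.88 with air and Iraqi sand and 11.02 with air and silica, while Cd3d is lower, and rat 604 has the lowest Jchain value, 7.38.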

How the data were processed

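Lung RNA from 24 rats was measured on Affymetrix Rat230_2 arrays. The authors deposited log2 values made with RMA (per the submitters' processing notes), which corrects background, normalizes arrays to the same quantiles and summarizes probe sets; its version is not given in the sources used here. RMA compresses changes of dim probe sets. A gene was read from its brightest probe set with 1 symbol over the 24 arrays, which gave 14217 genes. The number of arrays limits the precision.

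One model of 6 group means was fitted to all genes and arrays with limma 3.58.1 in R 4.3.3, with 18 residual degrees of freedom, two-sided tests and Benjamini-Hochberg adjustment within each of 14 comparisons. The script was tested on simulated data. Differences are log2, with SE. The members, gene lists and tests were chosen with earlier results of these data known. Named were all members, genes of other lists past the threshold (at most 8 a list), Ccl19, Ltb, Cd3d, Myl7, Bpifa1, Mki67, the 10 genes most like the members, and rats at an extreme of their group; Sftpc was named as a check of the tissue. Pax5, Spib, Ighm, Tnfsf13b and Ccr7 had no single-symbol probe set. Alternatives are given in the closing section.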

Additional observations from a re-analysis of the deposited data

Results flagged for a closer look

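A rat was picked out where its gap to the nearest of its 3 mates exceeded Dixon's 95% value for 4 samples as a share of the group's range, which chance passes in about 1 of 20 groups. Among the 48 member groups 5 passed, and these are not independent, as genes of the same rat share 1 array. In rat 302, Cd79b was 9.86 against 8.33 to 8.46 in its mates, Ms4a1 was 9.61 against 8.18 to 8.31, Cd22 was 8.34 against 7.48 to 7.61, and Blnk was 7.36 against 6.42 to 6.53. In rat 604, Pou2af1 was 6.83 against 7.56 to 7.66.

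The same look at 10 other genes gave 9 more. Rat 302 had Ccl19 at 9.08, Myl7 at 11.51 and Bpifa1 at 12.63. Rat 104 had Ccl21, a chemokine of lymphatic vessels and T zones, at 10.44 against 9.61 to 9.69, and Bpifa1 at 11.77. Rat 602 had Myl7 at 7.47, rat 203 had Mki67 at 7.06, and rat 503 had Cd37 at 8.98, each the highest of its group, and rat 105 had Jchain at 9.08, the lowest of its group.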

How the results depend on the processing

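With smoke averaged over particles, the count of called members was 1. It was 0 among genes at or above the median level, where 1 of the 8 members was still tested and Pou2af1 was not, 2 with array quality weights (Cd79b at 0.0410 besides Pou2af1), and 0 on the 19 arrays with an RNA integrity number, with or without it as a covariate. With each rat left out it ranged from 1 to 3, with 3 without rat 105. Under Iraqi sand the count of 0 became 1 with array quality weights (Pou2af1, adjusted p 0.0411) and ranged from 0 to 1 with each rat left out. Of 3724 recomputed member differences, 3717 kept their side of the threshold and their direction where called, 2 lost the call, 5 gained one and none called was reversed; 193 changed sign, called in neither setting. The other settings, which included a 1.5-fold minimum, trend and robust shrinkage, averaging the probe sets of a gene, only the groups compared, renormalization, centring, and, chosen after the data were seen, the other Cxcr5 probe set, gave the same counts of called members. No paired analysis was possible because the groups share no replicate numbers.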
